A study of Macaca fascicularis with 3 samples.

Results

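The 9 genes FIGLA, NOBOX, LHX8, SOHLH2, TAF4B, ZP3, GDF9, KHDC3L and KPNA7 were followed through monkey germ cells grown in reconstituted ovaries. They were taken by symbol from 26017 counted monkey features, and all 9 were found, 1 feature each. The germ cells came from the wildtype cynomolgus monkey (Macaca fascicularis) embryonic stem cell line 15XRi-AGVT#7, which carries the reporters TFAP2C-EGFP and DDX4-tdTomato. They were aggregated with mouse ovarian somatic cells of embryonic day E13.5, of E14.5, or of E15.5, and each mouse stage has a single library. All 3 titles carry the time label ag49+52. Monkey cells positive for either reporter were sorted, as were mouse cells negative for both, and the sorted populations were pooled for 3' single-cell RNA sequencing. Library values are given below in the order of the mouse stages, youngest first. The libraries come from a single cell line, with no replicate of a stage.

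In a mammalian ovary, germ cells pass from proliferating oogonia into meiotic prophase and are then enclosed in primordial follicles. FIGLA, NOBOX, LHX8 and SOHLH2 are transcription factors needed around follicle formation, and TAF4B is a germ cell-enriched subunit of the general transcription factor TFIID. ZP3 is a protein of the zona pellucida, the coat of the egg, and GDF9 is a growth factor that oocytes send to granulosa cells. KHDC3L belongs to the subcortical maternal complex of eggs and early embryos, and KPNA7 is an oocyte-type importin alpha, a carrier for nuclear import.

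Germ cells were barcodes with at least 10000 UMIs (unique molecular identifiers, 1 per captured RNA molecule) and 2 to 20% of UMIs in the 13 mitochondrially encoded genes. This gave 537, 536 and 1113 cells in the 3 libraries, with medians of 55620, 43003 and 48553 UMIs, out of 7827 barcodes and 146221077 UMIs. The library labels call the cells early oogonia, and DAZL was detected in 2159, DDX4 in 2083 and TFAP2C in 967 of the 2186 cells. Of the barcode sequences, 686 occurred in more than 1 library, and 669 of these were a germ cell in 1 library. None was a germ cell in 2, and the other copies had a median of 974 UMIs, under the minimum. Barcodes with under 2% mitochondrial UMIs (4165, median 6036 UMIs) were taken as mouse cells, whose reads count only where they mapped to a monkey gene.

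Each cell took the first state it met, using 5 gate genes that are none of the 9. The EGR4/PIWIL4 state (48 cells) had at least 2 UMIs of both genes, and the SYCE3-high state (132) was the top 6% by SYCE3, a synaptonemal complex gene. The STRA8-positive state (629) was the top 30% by STRA8, a retinoic acid target, the POU5F1-high state (424) was the top 20% by the pluripotency gene POU5F1, and 953 cells were ungated. These are ranges and not cell types. The cuts lay at 324 CPM (counts per 1000000 UMIs) of POU5F1, 38.3 CPM of STRA8 and 452 CPM of SYCE3, with 25, 197 and 45 cells within 20% of them, and 41 cells met more than 1 gate. The lowest STRA8 level inside its gate was 38.4 CPM and the highest outside was 38.3 CPM. All 8 early oogonia markers were highest in the POU5F1-high state, and 8 of 9 meiotic prophase markers in the SYCE3-high state. SYCP1 was instead highest in the EGR4/PIWIL4 state (186 CPM), where TEX12 also stood near its SYCE3-high level. SPO11 (1.96 against 45.4 CPM), SYCP2 (28.7 against 271 CPM), HORMAD1 and MEIOB were far lower there than in SYCE3-high cells. Of 6 prospermatogonia-type markers, 4 were highest in the EGR4/PIWIL4 state, among them both its gate genes and NANOS2 (85.6 CPM). TEX14 (21.2 CPM) and DPPA4 (24.3 CPM) were highest in other states. No doublet caller was run.

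Transcripts of all 9 genes were found in these germ cells, those of ZP3 and KPNA7 near the limit of detection. SOHLH2 was the most abundant in UMIs, with 5411 UMIs in 1589 of 2186 cells. TAF4B had 1683 UMIs in 1053 cells and KHDC3L 1560 UMIs in 502 cells. GDF9 gave 620 UMIs in 515 cells, LHX8 597 in 374 and FIGLA 299 in 152. NOBOX gave 35 UMIs in 29 cells, KPNA7 15 in 14 and ZP3 13 in 12. UMI counts of different genes are not scaled for how well each 3' end is captured, so they do not rank the genes by expression.

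The 9 genes fell into different states. The POU5F1-high state held 20.6% of all germ cell UMIs, but 74.6% of those of KHDC3L and 1.17% of those of LHX8. The SYCE3-high state held 5.60% of all UMIs and 29.8% of those of FIGLA. In the EGR4/PIWIL4 state, with 2.25% of all UMIs, were 45.7% of the NOBOX UMIs and 13.4% of the FIGLA UMIs.

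**Figure D1:**
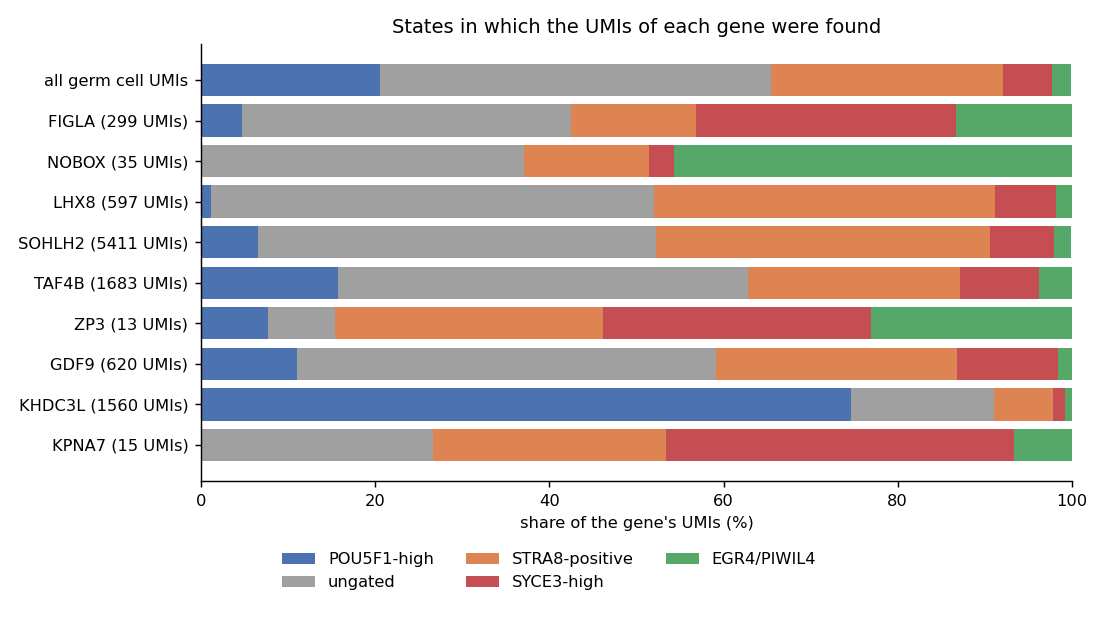
Share of each gene's germ cell UMIs (x axis, percent) found in each of the 5 states (colours), with the share of all germ cell UMIs as the top bar. KHDC3L lies mostly in POU5F1-high cells (74.6%), NOBOX has 45.7% in EGR4/PIWIL4 cells, and FIGLA has 29.8% in SYCE3-high cells.

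States were compared with edgeR's quasi-likelihood test on UMIs summed per library and state (14 sums of at least 10 cells, library as block), with Benjamini-Hochberg adjustment over 16279 genes and a threshold of 0.05. The EGR4/PIWIL4 state of E13.5 had only 2 cells and was not in the fit. Fold changes are log2 values ± SE on the TMM scale, which sets the bulk of genes equal between sums, whereas levels in CPM are shares of all UMIs. The choice matters most for the POU5F1-high state: scaled to total UMIs alone, the median of all genes in ungated over POU5F1-high cells moved from 0.07 to 0.56, and the higher share of the calls from 51.9% to 79.3%. Under that scaling all 7 tested members were called there, 6 of them higher. In EGR4/PIWIL4 over ungated cells, 48.4% of the calls were higher, against 59.0% with DESeq2 size factors and 63.3% with total UMIs. Of the 9 genes, 7 passed the filter on low counts, and ZP3 and KPNA7 did not; NOBOX passed only through the EGR4/PIWIL4 state, where it was high, so its difference in that state is given as levels and not counted.

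Of the 7 tested members, 3 were higher and 1 was lower in ungated than in POU5F1-high cells. Of all tested genes 34.0% were higher and 31.5% lower (65.5% called). The median log2 fold change of the 7 tested members was 1.13, beside 0.07 for all genes. One member (SOHLH2) was higher in STRA8-positive than in ungated cells, where 0.977% of genes were higher and 1.98% lower (2.95% called) and the member median was -0.24. The higher share of all calls there was 33.1%, and 47.8% with total UMIs as scale. FIGLA, TAF4B and GDF9 were higher in SYCE3-high than in STRA8-positive cells, 3 of the 7 tested members. The background there was 25.7% higher and 26.9% lower (52.6% called). The member median there was -0.17. FIGLA was higher in EGR4/PIWIL4 than in ungated cells, the 1 call among the tested members with NOBOX not counted. The background there was 25.6% higher and 27.2% lower (52.8% called). With 7 tested members these counts do not set the members apart from the background, and that of STRA8-positive over ungated cells rests on 1 gene.

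**Figure D2:**
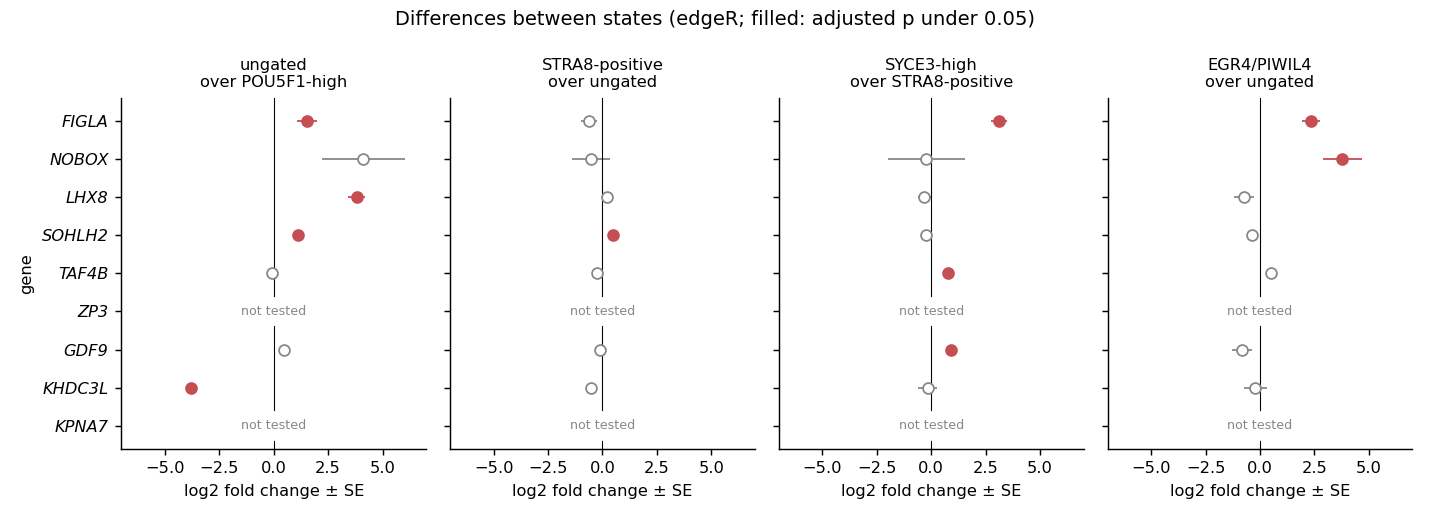
Log2 fold change ± SE (x axis, TMM scale) of each gene in the 4 comparisons of states; filled points have an adjusted p under 0.05, and ZP3 and KPNA7 were not tested, and NOBOX passed the low-count filter only through EGR4/PIWIL4 cells. Of the called points, LHX8 (3.81) and KHDC3L (-3.79) lie farthest apart in ungated over POU5F1-high cells, and FIGLA is the farthest called point (3.10) in SYCE3-high over STRA8-positive cells.

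FIGLA, a basic helix-loop-helix activator of zona pellucida genes, was rare in POU5F1-high cells and highest in the SYCE3-high and EGR4/PIWIL4 states. In POU5F1-high cells it stood at 0.247, 1.10 and 0.464 CPM, and in ungated cells at 1.40, 2.72 and 2.61 CPM. STRA8-positive cells had 0.697, 3.80 and 1.12 CPM. SYCE3-high cells had 6.04, 32.3 and 10.9 CPM, and EGR4/PIWIL4 cells 0 UMIs (2 cells), 14.6 CPM and 16.8 CPM. SYCE3-high levels did not overlap those of STRA8-positive cells, and E14.5 was the highest of the 3 libraries in both states. FIGLA was higher in SYCE3-high than in STRA8-positive cells by 3.10 ± 0.36 log2 (adjusted p 2.83e-07, higher in 3 of 3 libraries), a call kept under all 14 alternatives, with 4.19 log2 at gates of 0.5 times their share.

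FIGLA was also higher in ungated than in POU5F1-high cells, by 1.52 ± 0.47 log2 (edgeR adjusted p 0.00702, 3 of 3 libraries). This call was lost with gates at 0.5 times their share (0.91 log2, adjusted p 0.123), without the library block (1.36, 0.110) and without E15.5 (1.17, 0.121). In EGR4/PIWIL4 over ungated cells it was higher by 2.36 ± 0.41 log2 (adjusted p 5.24e-05, 2 of 2 libraries). It came to 1.70 log2 with gates at 1.5 times their share and to 2.97 log2 with cells high in mouse supporting cell markers left out, both called. The call was lost without E15.5 (1.83 log2, adjusted p 0.0872), which leaves 1 EGR4/PIWIL4 sum of 10 cells, assumed to vary like the other sums.

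A FIGLA UMI was present in 45.8% of EGR4/PIWIL4 cells (22 of 48, exact Clopper-Pearson 95% interval 31.4 to 60.8) and in 24.2% of SYCE3-high cells (32 of 132, 17.2 to 32.5). It was present in 2.83% of POU5F1-high cells (12 of 424, 1.47 to 4.89) and in 0.120% of mouse barcodes, which are shallower. Thinned to 10000 UMIs per cell, the shares were 14.4%, 10.6% and 0.637% in EGR4/PIWIL4, SYCE3-high and POU5F1-high cells. These intervals, like the others given, cover counting error only. FIGLA RNA was unevenly spread: 8 SYCE3-high cells and 6 EGR4/PIWIL4 cells held at least 50% of the UMIs of their state.

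The 38 cells with at least 3 FIGLA UMIs, a minimum chosen after the values were seen, lay in 4 of the states. In the SYCE3-high state there were 14, of which 12 had a UMI of SPO11, the enzyme that starts meiotic recombination, and 0 had one of EGR4 or PIWIL4. In the EGR4/PIWIL4 state there were 6, all with SOHLH1, another oocyte transcription factor, and 1 with SPO11. Over all cells, SPO11 stood at 45.4 CPM in SYCE3-high and 1.96 CPM in EGR4/PIWIL4 cells, and SOHLH1 at 4.26 and 178 CPM. EGR4 and PIWIL4 were at 1.58 and 1.42 CPM in SYCE3-high cells, from which the first gate had taken cells with both. How many of all cells of these states had a UMI of these genes was not counted, so the counts are no trait of FIGLA cells. The other 18 were ungated (13) or STRA8-positive (5). Among ungated cells, those with any EGR4 or PIWIL4 UMI (125 cells) had FIGLA at 8.56 CPM (61 UMIs). The 828 without one had 1.19 CPM (52 UMIs, exact Poisson 95% interval 0.890 to 1.56). NOBOX differed in the same way, with 10 and 3 UMIs, and LHX8 stood at 9.41 and 5.41 CPM.

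NOBOX, a homeobox factor of oocytes, was rare, and its highest levels were in the EGR4/PIWIL4 state. POU5F1-high cells had 0 UMIs in every library, and ungated cells had 0.175, 0.176 and 0.360 CPM. STRA8-positive cells had 0.232, 0.634 and 0 CPM, and SYCE3-high cells 0, 0.788 (1 UMI) and 0 CPM. EGR4/PIWIL4 cells had 5 UMIs in the 2 cells of E13.5, 6.50 CPM (4 UMIs) in E14.5 and 3.80 CPM (7 UMIs) in E15.5. The EGR4/PIWIL4 values lay above those of every other state in all 3 libraries. These levels are a description, since NOBOX entered the test only through the state in which it was high.

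Over all libraries, NOBOX stood at 6.28 CPM in EGR4/PIWIL4 cells (exact Poisson 95% interval 3.59 to 10.2). This was 48.9 times the floor of 3 counts over the 424 POU5F1-high cells (0.129 CPM). The ratio leaves out the counting error of its own 16 UMIs. A NOBOX UMI was found in 25.0% of EGR4/PIWIL4 cells (12 of 48, 13.6 to 39.6) and in 1.26% of ungated cells (12 of 953). Of the 4165 mouse barcodes none had one, which allows a share of up to 0.0720% at their lower depth. Of the 29 cells with NOBOX, 23 had a UMI of EGR4 or PIWIL4, 26 had SYCP1, 20 had SOHLH1 and 18 had FIGLA, while 1 had SPO11. For the 12 in the EGR4/PIWIL4 state the gate itself required both EGR4 and PIWIL4. Outside it, 9 of 12 ungated, 2 of 4 STRA8-positive and 0 of 1 SYCE3-high cells with NOBOX had either gene. Among all 953 ungated cells, 125 had either gene. How many of all germ cells had SYCP1 or SOHLH1 was not counted. Of the 35 UMIs, no cell held more than 3.

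**Figure D3:**
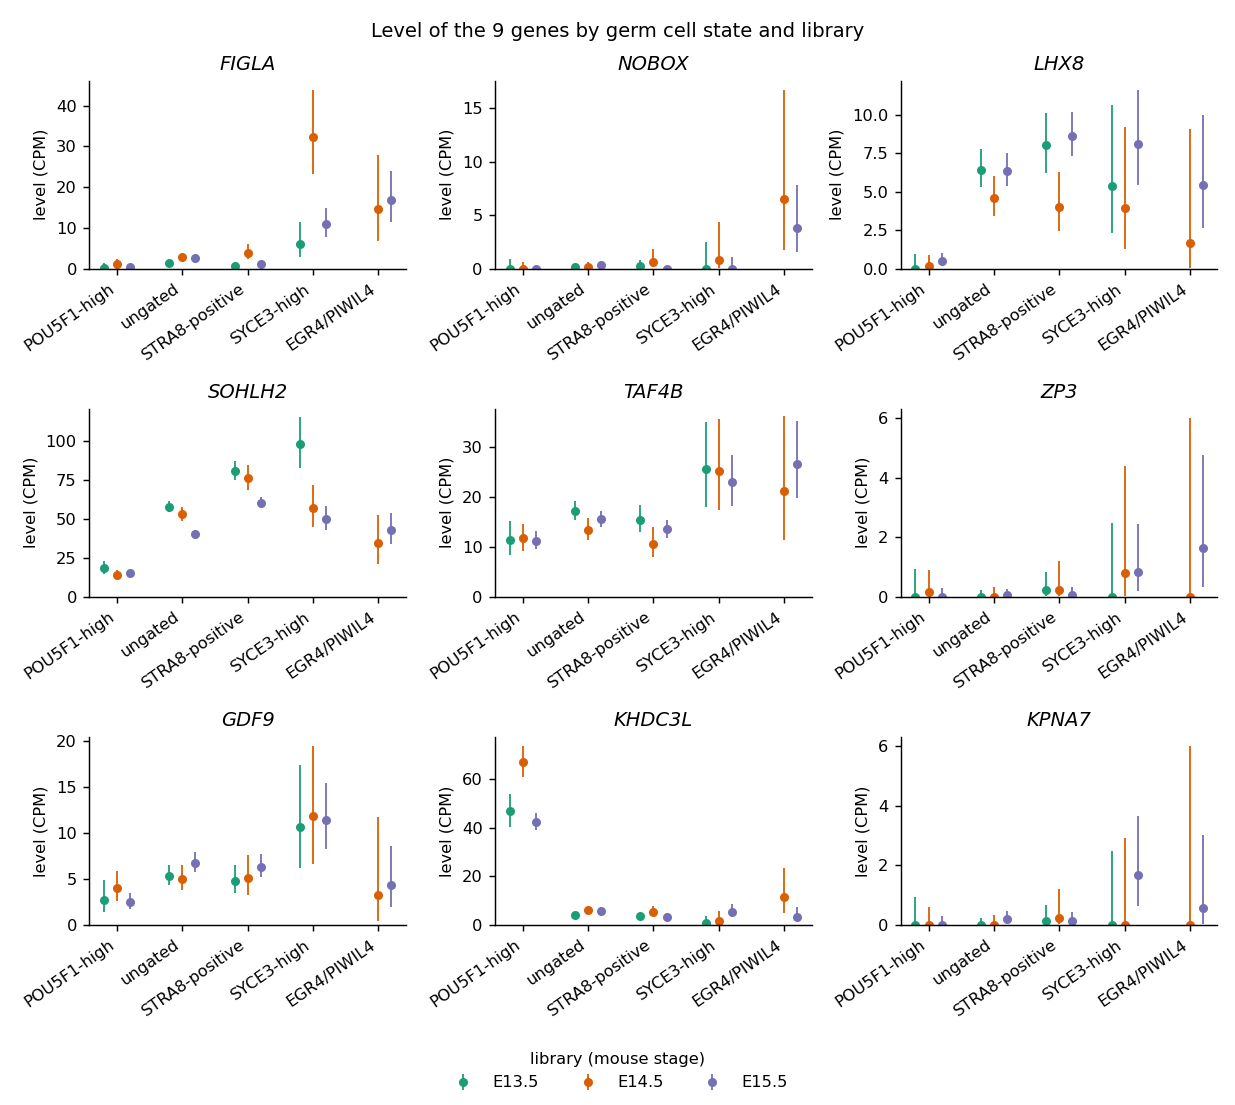
Level (CPM, linear axis starting at 0, a scale of its own for each gene) in each state and library, with exact Poisson 95% intervals; the 2 EGR4/PIWIL4 cells of E13.5 are left out. FIGLA is highest in SYCE3-high cells of E14.5 (32.3 CPM), NOBOX in EGR4/PIWIL4 cells, LHX8 and SOHLH2 are lowest in POU5F1-high cells, and KHDC3L is highest there.

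LHX8, a LIM-homeobox factor of primordial oocytes, was close to the limit of detection in POU5F1-high cells and spread over all other states. It stood at 0, 0.158 and 0.464 CPM in POU5F1-high cells, and at 6.42, 4.57 and 6.34 CPM in ungated cells. STRA8-positive cells had 8.01, 4.02 and 8.64 CPM, SYCE3-high cells 5.37, 3.94 and 8.09 CPM. EGR4/PIWIL4 cells had 0 UMIs in E13.5, 1.63 CPM in E14.5 and 5.42 CPM in E15.5. The ungated and POU5F1-high values did not overlap, whereas those of the 4 other states overlapped each other, and E14.5 was the lowest library in the ungated, STRA8-positive and SYCE3-high states.

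Ungated over POU5F1-high cells, LHX8 was higher by 3.81 ± 0.39 log2 (edgeR adjusted p 2.00e-08, 3 of 3 libraries). The difference was called under all 14 alternatives and came to 5.06 log2 without E15.5 and 5.29 log2 with gates at 0.5 times their share. No further difference was called for LHX8: STRA8-positive over ungated cells gave 0.23 ± 0.19 log2 (adjusted p 0.596) and SYCE3-high over STRA8-positive cells -0.31 ± 0.28 log2 (0.367). A UMI of LHX8 was found in 19.4% of ungated cells (185 of 953, 16.9 to 22.1) and in 1.42% of POU5F1-high cells (6 of 424, 0.521 to 3.05), with 0.144% of mouse barcodes. Unlike FIGLA, LHX8 was thinly spread, with 55 ungated cells needed to reach 50% of the UMIs of that state and at most 8 UMIs in a cell.

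SOHLH2, the helix-loop-helix partner of SOHLH1 in oogonia and primordial oocytes, was present in every state and rose in 2 steps. POU5F1-high cells had 18.3, 13.6 and 15.1 CPM, and ungated cells 57.7, 52.8 and 39.8 CPM. STRA8-positive cells had 80.5, 76.3 and 60.3 CPM. SYCE3-high cells had 146, 72 and 179 UMIs, of which E13.5 stood at 97.9 CPM and E14.5 at 56.8 CPM, and EGR4/PIWIL4 cells 114 CPM (2 cells), 34.1 CPM and 42.8 CPM. Every library was higher in ungated than in POU5F1-high cells and higher again in STRA8-positive cells, and the STRA8-positive values lay above the ungated ones without overlap. E13.5 was the highest library in all 5 states.

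The first step was 1.13 ± 0.13 log2 (edgeR adjusted p 8.40e-08, 3 of 3 libraries), and 1.63 with scaling to total UMIs alone. The second, STRA8-positive over ungated, was 0.49 ± 0.10 log2 (adjusted p 0.00917, 3 of 3 libraries). This second call was lost without E13.5 (0.51 log2, adjusted p 0.0940), without E15.5 (0.45, 0.178) and without the library block (0.48, 0.434). SYCE3-high over STRA8-positive cells gave -0.22 ± 0.13 log2 (0.162), which became a call for a lower level without E13.5 (-0.43, adjusted p 0.0309). A SOHLH2 UMI was found in 86.8% of STRA8-positive, 76.8% of ungated and 41.5% of POU5F1-high cells. At 10000 UMIs these shares were 46.4%, 35.1% and 12.9%, and 0.912% of mouse barcodes had a UMI at their own depth.

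TAF4B was present in every state and library, from 10.6 to 26.6 CPM. Its levels in POU5F1-high cells were 11.4, 11.7 and 11.2 CPM. Ungated cells had 294, 153 and 345 UMIs (13.4 to 17.2 CPM), and STRA8-positive cells 133, 50 and 228 UMIs (10.6 to 15.4 CPM). SYCE3-high cells had 25.5, 25.2 and 22.9 CPM. EGR4/PIWIL4 cells had 1 UMI in E13.5, and 21.1 and 26.6 CPM in E14.5 and E15.5. The SYCE3-high values lay above all values of the POU5F1-high, ungated and STRA8-positive states.

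TAF4B was higher in SYCE3-high than in STRA8-positive cells by 0.75 ± 0.17 log2 (edgeR adjusted p 6.75e-04, 3 of 3 libraries). EGR4/PIWIL4 over ungated cells gave 0.51 ± 0.22 log2 (adjusted p 0.0577, not called), and it was called with DESeq2 size factors (0.68, adjusted p 0.0134) and with total UMIs (0.74, 0.00653). In ungated over POU5F1-high cells the direction turned with the scaling, from -0.08 ± 0.14 log2 (adjusted p 0.620) to 0.42 (0.00792) with total UMIs alone, the scale on which ungated cells were higher in 3 of 3 libraries. Mouse barcodes held TAF4B at 9.77, 5.50 and 3.10 CPM, so of the 9 genes it came nearest there to its level over all germ cells. In POU5F1-high cells alone, LHX8 (0.300 CPM) was also near its level in mouse barcodes (0.240 CPM). The reference annotation lists an snRNA gene overlapping TAF4B, and what this overlap adds to the TAF4B counts was not tested.

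GDF9 was low and broadly spread, and it was highest in SYCE3-high cells. POU5F1-high cells had 2.72, 3.94 and 2.47 CPM, and ungated cells 5.31, 5.01 and 6.74 CPM. STRA8-positive cells had 4.76, 5.07 and 6.33 CPM and SYCE3-high cells 10.7, 11.8 and 11.4 CPM. EGR4/PIWIL4 cells had 0 UMIs, 3.25 CPM (2 UMIs) and 4.34 CPM. The SYCE3-high values overlapped those of no other state and varied little between libraries.

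The increase in GDF9 from STRA8-positive to SYCE3-high cells was 0.91 ± 0.25 log2 (edgeR adjusted p 0.00395, 3 of 3 libraries), and it was called under all 14 alternatives. Ungated over POU5F1-high cells gave 0.48 ± 0.23 log2 (adjusted p 0.0708), called without E14.5 (0.84, adjusted p 0.00866) and with total UMIs (0.98, 5.50e-04). In EGR4/PIWIL4 over ungated cells the difference was -0.83 ± 0.45 log2 (adjusted p 0.128). A GDF9 UMI was found in 37.1% of SYCE3-high cells (49 of 132, 28.9 to 46.0) and 25.2% of ungated cells (240 of 953, 22.5 to 28.1). The mouse barcodes had 3 GDF9 UMIs in all, and no germ cell had more than 5.

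KHDC3L had its highest level in the POU5F1-high state, where LHX8, SOHLH2 and NOBOX had their lowest. POU5F1-high cells had 46.7, 67.0 and 42.4 CPM, and ungated cells 3.91, 6.15 and 5.40 CPM. STRA8-positive cells had 3.37, 5.28 and 3.02 CPM. SYCE3-high cells had 0.671 (1 UMI), 1.58 (2 UMIs) and 5.30 CPM, and EGR4/PIWIL4 cells 0 UMIs, 11.4 and 3.25 CPM. Every POU5F1-high value lay far above every value of the other states. KHDC3L was lower in ungated than in POU5F1-high cells by -3.79 ± 0.17 log2 (edgeR adjusted p 1.47e-14, lower in 3 of 3 libraries), with a range of -4.01 to -3.30 over 14 alternatives.

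A KHDC3L UMI was present in 58.3% of POU5F1-high cells (247 of 424, 53.4 to 63.0), 17.8% of ungated cells and 6.06% of SYCE3-high cells. The RNA was concentrated even within the POU5F1-high state, where 29 of the 424 cells held 50% of the UMIs and 1 cell held 56. In the SYCE3-high and EGR4/PIWIL4 states single cells carried much of it: 1 SYCE3-high cell held 13 of 22 UMIs and 1 EGR4/PIWIL4 cell held 7 of 13. SYCE3-high over STRA8-positive cells gave -0.17 ± 0.42 log2 (edgeR adjusted p 0.762). It was called lower without E15.5 (-2.02, adjusted p 0.0174) and with cells of more than 1 gate left out (-1.38, 0.0243). KHDC3L has paralogs of the KHDC family, and how reads were split among near-identical copies is uncertain.

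ZP3 and KPNA7 gave too few UMIs for a test. ZP3 had 1 UMI each in POU5F1-high and ungated cells, 4 in STRA8-positive cells, 4 in SYCE3-high cells and 3 in EGR4/PIWIL4 cells, with 2, 3 and 8 UMIs in the 3 libraries. Its level was 0.631 CPM in SYCE3-high cells (exact Poisson 95% interval 0.172 to 1.61) and 0.0197 CPM in ungated cells (4.99e-04 to 0.110). The intervals of STRA8-positive (0.0360 to 0.339) and POU5F1-high cells (0.00109 to 0.239) overlapped that of SYCE3-high cells. SYCE3-high cells of E13.5 had 0 ZP3 UMIs. These intervals cover counting error alone, and no difference of ZP3 between states is drawn from them. KPNA7 had 0 UMIs in POU5F1-high cells, 4 each in ungated and STRA8-positive cells, 6 in SYCE3-high cells and 1 in EGR4/PIWIL4 cells. All 6 SYCE3-high UMIs, and 13 of the 15 in all, came from E15.5. With 0.946 CPM in SYCE3-high cells (0.347 to 2.06), KPNA7 stood at 7.36 times the floor of 3 counts in POU5F1-high cells. The ratio leaves out the counting error of its own 6 UMIs. Neither gene had a UMI in the 4165 mouse barcodes.

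Cells that carried several of the 9 genes at once were commonest in the SYCE3-high and EGR4/PIWIL4 states. At least 4 of the 9 had a UMI in 22.9% of EGR4/PIWIL4 cells (11 of 48, exact Clopper-Pearson 95% interval 12.0 to 37.3) and 18.2% of SYCE3-high cells (24 of 132, 12.0 to 25.8). The share was 9.02% in ungated, 7.00% in STRA8-positive and 1.65% in POU5F1-high cells. No cell held more than 6. Mean numbers at 10000 UMIs per cell were 0.906, 0.893, 0.663, 0.753 and 0.535 for EGR4/PIWIL4, SYCE3-high, ungated, STRA8-positive and POU5F1-high cells. GDF9 had a UMI in 515 of the 2186 germ cells (23.6%) and in 37.1% of SYCE3-high cells. It was found in 2 of the 29 cells with NOBOX, neither of them in the EGR4/PIWIL4 or SYCE3-high state. Of the 152 cells with FIGLA, 42 had GDF9, and 16 of these were SYCE3-high. Whether any 2 members met more or less often than their shares of cells imply was not tested.

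**Figure D4:**
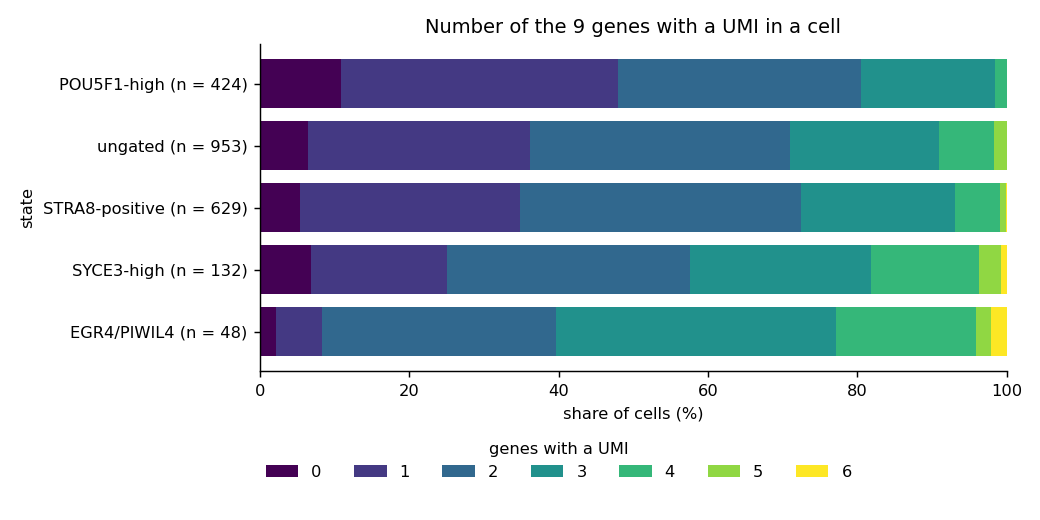
Share of cells of each state (x axis, percent) by the number of the 9 genes with at least 1 UMI in the cell (colours, 0 to 6). The share with 4 or more is 1.65% in POU5F1-high cells, 18.2% in SYCE3-high cells and 22.9% in EGR4/PIWIL4 cells.

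The summed level of 4 marker genes of mouse supporting cells was highest in these same states. The summed level of AMHR2, WNT4, FOXL2 and INHA was 14.1 CPM in POU5F1-high, 36.9 in ungated, 33.2 in STRA8-positive, 78.7 in SYCE3-high and 87.1 CPM in EGR4/PIWIL4 cells. It was 2415 CPM in mouse barcodes, and all 4 genes were detected in all 5 states. The genes differed: in EGR4/PIWIL4 cells FOXL2 stood at 19.6 CPM against 32.0 CPM in mouse barcodes, and INHA at 38.9 against 1506 CPM. From which species these transcripts came was not tested. FIGLA, GDF9 and NOBOX themselves had 6, 3 and 0 UMIs in all mouse barcodes. With cells at 100 CPM or more of these markers left out, the same members passed the threshold in all 4 comparisons of states. This alternative was chosen after the data were seen. NOBOX also passed, but it entered the test only through the EGR4/PIWIL4 state, so its call is not counted. Cells with less than 100 CPM of these markers stayed in. What RNA from mouse cells adds to the levels of the members was not tested.

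Between mouse stages there is 1 library each and so no test. Over all germ cells FIGLA stood at 1.28, 4.35 and 2.66 CPM, highest in E14.5, with exact Poisson 95% intervals of 0.911 to 1.74, 3.57 to 5.27 and 2.26 to 3.12. LHX8 was lowest in E14.5, at 3.20 CPM (78 UMIs) against 5.96 in E13.5 and 5.77 in E15.5. SOHLH2 was 61.0, 46.9 and 41.0 CPM, highest in E13.5. TAF4B was 16.3, 13.2 and 14.8 CPM, and GDF9 5.07, 5.05 and 5.88 CPM, with overlapping intervals for GDF9. NOBOX was 0.319, 0.411 and 0.261 CPM with overlapping intervals. The intervals do not include the variation between aggregates, which was not measured.

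By a size rule of 2-fold on log2(CPM + 1) with at least 20 CPM in 1 library, 1 of 27 member comparisons passed: KHDC3L, at 21.7 CPM in E14.5 over 9.12 CPM in the youngest stage (log2 1.17, against a median of -0.13). Of all genes at that level, 0.256% passed as higher and 0.242% as lower in E14.5 over E13.5. In E15.5 over E13.5, 0.0530% and 0.185% passed, and in E15.5 over E14.5, 0.135% and 0.189%, with no member among them. POU5F1-high cells were 11.7% of germ cells in E13.5 and 23.7% in E14.5. Within states the KHDC3L ratio of these libraries was 0.51 in POU5F1-high, 0.54 in ungated, 0.52 in STRA8-positive and 0.63 log2 in SYCE3-high cells, and with equal weight to the states it was 0.52. KHDC3L no longer passed under equal weight. It also did not pass with DAZL, DDX4 and TFAP2C required, where it stood at 19.7 CPM in E14.5.

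**Figure D5:**
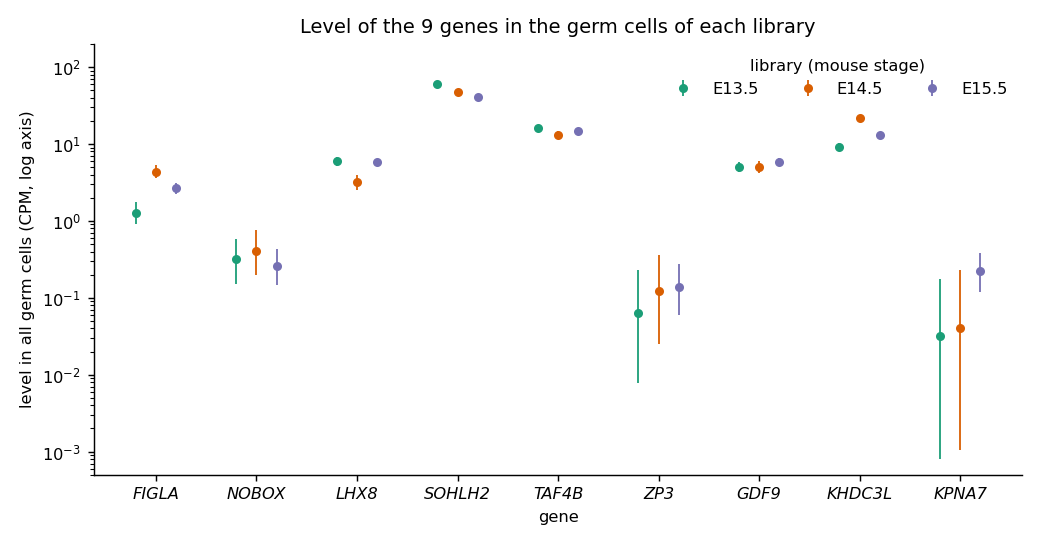
Level of each gene over all germ cells of a library (CPM, log axis) with exact Poisson 95% intervals, which cover counting error only. FIGLA is higher in E14.5 (4.35 CPM) than in E13.5 (1.28 CPM), LHX8 is lowest in E14.5 (3.20 CPM), and KHDC3L is highest there (21.7 CPM).

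The genes with the most similar profile over the 14 sums, by Pearson's r of log2(CPM + 1) among 10125 genes, differed from member to member. They were UBE2J2 (r = 0.969), YBEY and C15H9orf43 for FIGLA, and SP9 (0.981), AADAT and VEZF1 for LHX8. For SOHLH2 they were TMA16 (0.979), PCOLCE and CPNE3. For TAF4B they were PRSS45 (0.948), TEX12 and SLC39A13, for GDF9 SMTN (0.967), ZCCHC17 and CSNK2B, and for KHDC3L MRPS24 (0.971), IFI16 and PAFAH1B3. Among the members, r was 0.867 between LHX8 and SOHLH2, 0.821 between FIGLA and TAF4B and -0.936 between SOHLH2 and KHDC3L. These are descriptions: sums of 1 library share depth and preparation, and shares of 1 total are not independent.

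Other genes of the same pathways were taken from 4 lists. Of all tested genes, 34.0% were higher and 31.5% lower in ungated over POU5F1-high cells, and 0.977% and 1.98% in STRA8-positive over ungated cells. The shares were 25.7% and 26.9% in SYCE3-high over STRA8-positive cells, and 25.6% and 27.2% in EGR4/PIWIL4 over ungated cells. The counts of each list stand beside these shares. Of 16 tested oocyte transcription factor and follicle formation genes, 2 were higher and 8 lower in ungated than in POU5F1-high cells (median -0.31, all genes 0.07), where 34.0% of all genes were higher and 31.5% lower. This split turned with the scaling: with total UMIs alone it was 6 higher and 5 lower (median 0.18, all genes 0.56). SOHLH1, the partner of SOHLH2, was higher by 3.38 ± 0.39 log2 (edgeR adjusted p 1.02e-07). It was higher by 2.03 and 4.33 with gates at 1.5 and 0.5 times their share. Without cells high in mouse supporting cell markers the difference was 4.11, and all of these were called. Mouse barcodes held SOHLH1 at 3.33 CPM, beside 5.62 CPM in ungated and 0.386 CPM in POU5F1-high cells. What mouse RNA adds to its level was not tested. TBPL2, an oocyte TBP-like factor, was lower in ungated than in POU5F1-high cells by -2.38 ± 0.20 log2 (edgeR adjusted p 5.50e-10). In SYCE3-high over STRA8-positive cells 4 were higher and 6 lower (median -0.07, all genes -0.03), beside 25.7% and 26.9% of all genes. With total UMIs it was 5 and 4. LMX1A, 1 of the 4 higher, stood at only 0.315 against 0 CPM (edgeR adjusted p 0.0496). It passed the low-count filter only through the EGR4/PIWIL4 state, and its call was kept in 7 of 13 alternatives. Among the lower ones was the receptor KIT at -2.10 ± 0.13 log2 (1.46e-11). EGR4/PIWIL4 over ungated cells, 6 were higher and 4 lower (median -0.07, all genes -0.05; 25.6% and 27.2% of all genes). SOHLH1 was there 175 ± 10.8 CPM (SD, n = 2) against 5.96 ± 1.92 CPM (SD, n = 3), a difference of 4.62 ± 0.20 log2 (adjusted p 4.86e-13). One of the 6, the LIM-homeobox gene LMX1A (mean 0.123 CPM in ungated and 6.23 CPM in EGR4/PIWIL4 cells), passed the filter only through the latter state, so its call is not independent of the filter. None of this list was called in STRA8-positive over ungated cells.

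Of the zona pellucida and secreted oocyte factors, 9 of 14 were found and 4 tested. In ungated over POU5F1-high cells 3 were higher, beside 34.0% of all genes (median 1.73, all genes 0.07). They were ZP2, BMP6 and FGF8, the last 2 named after their values were seen. BMP6 stood at only 1.02 CPM in ungated and 0.0857 CPM in POU5F1-high cells. It would not have passed the low-count filter without the SYCE3-high and EGR4/PIWIL4 states, and it was highest in the latter (2.75 CPM). Its call is therefore not independent of the filter. With total UMIs as scale the number was also 3, and it was 2 with the DESeq2 Wald test. ZP2, a zona protein like ZP3, differed by 4.06 ± 0.76 log2 (edgeR adjusted p 7.12e-05), by 5.93 without E15.5, and by 6.27 and 3.32 with gates at 0.5 and 1.5 times their share, at a level of only 1.26 CPM in ungated cells. ZP1 and ZP4 had 2 and 1 UMIs, and BMP15, the relative of GDF9 that oocytes secrete with it, had 0. FGF8 was lower in SYCE3-high than in STRA8-positive cells, by -1.98 ± 0.38 log2 (adjusted p 1.44e-04), and -2.78 with gates at 0.5 times their share, the 1 call of the list there. FGF8 was the 1 gene of 4 that was higher in EGR4/PIWIL4 than in ungated cells (0.72 ± 0.29 log2, edgeR adjusted p 0.0372, list median 0.82). None of the 4 was called in STRA8-positive over ungated cells.

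Of 18 tested maternal-effect genes, the list of KHDC3L's kind, 4 were higher and 7 lower in ungated than in POU5F1-high cells. The median was 0.12 (all genes 0.07), and 34.0% of all genes were higher and 31.5% lower. With total UMIs alone the list turned to 8 higher and 4 lower (median 0.62, all genes 0.56). ZAR1 was higher by 5.31 ± 0.65 log2 (edgeR adjusted p 2.75e-07), with 7.93 without E14.5 and 4.05 without E15.5. It came to 7.40 and 2.77 with gates at 0.5 and 1.5 times the share. Without cells high in mouse supporting cell markers it came to 7.57, and all of these were called. TCL1A, DPPA5 and KHDC1L were lower, by -2.54 ± 0.10, -2.39 ± 0.13 and -2.11 ± 0.17 log2. In STRA8-positive over ungated cells 0 were higher and 1 was lower, DPPA5, by -0.74 log2, a call lost without E15.5 (-0.77, edgeR adjusted p 0.231), with gates at 1.5 times the share (-0.24, 0.564) and without the block (-0.79, 0.111). In SYCE3-high over STRA8-positive cells 7 were higher and 5 lower (median -0.34), with NPM2, an egg histone chaperone, at 2.83 ± 0.50 log2 and NLRP7 at -1.62 ± 0.12 (-2.48 and -1.01 with gates at 0.5 and 1.5 times the share, both called). Between EGR4/PIWIL4 and ungated cells 8 were higher and 3 lower (median 0.48), with NPM2 at 3.48 ± 0.56 log2 (4.38 without E15.5, 5.10 with gates at 1.5 times the share). PADI6, one of the 8, stood at 0.138 and 4.32 CPM in ungated and EGR4/PIWIL4 cells, and would not have passed the filter without the latter, so its call is not independent of the filter. NLRP2 and NLRP7, neighbouring paralogs between which reads may be split, were lower there by -2.61 ± 0.17 and -2.54 ± 0.17 log2 (NLRP2 -1.95 without E15.5, and -2.00 and -1.82 with gates at 1.5 times the share).

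The last list held 20 genes of TFIID subunits and importins, the families of TAF4B and KPNA7, all tested. In ungated over POU5F1-high cells 6 were higher and 6 lower, beside 34.0% and 31.5% of all genes, with a median of -0.02. With total UMIs alone 13 were higher and 2 lower (median 0.47, all genes 0.56), so no direction of this family is given for that comparison. In STRA8-positive over ungated cells 1 was lower, KPNA2, by -0.54 ± 0.12 log2 (edgeR adjusted p 0.0162), a call lost without E13.5 (-0.51, 0.253), without the block (-0.54, 0.339) and with gates at 1.5 times the share (-0.48, 0.0728). In SYCE3-high over STRA8-positive cells 4 were higher and 5 lower (median -0.03), and TAF12 was higher by 1.38 ± 0.11 log2 (7.07e-10). EGR4/PIWIL4 over ungated cells, 2 were higher and 8 lower (median -0.39), with KPNA2 lower by -1.56 ± 0.17 log2 (9.71e-08).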

How the data were processed

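Single-cell RNA was sequenced from 3 libraries, 1 per mouse stage. The values are the raw UMI counts of each monkey gene in each barcode as deposited; the authors ran Cell Ranger 6.0.1, as the file headers state, and kept called barcodes only. Which genome build and annotation they used is not given in the sources used here. Symbols were taken as the files give them, and 699 of 9282 LOC-named features took a symbol through the gene number in RefSeq's table of another assembly, which served only for names and overlaps. Sequences and promoter motifs of the genes were not analysed here.

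Germ cells, states and mouse barcodes were set as described above. Germ cells held 31364271, 24342943 and 57505722 UMIs by mouse stage, so a floor of 3 counts stands for 0.0957, 0.123 and 0.0522 CPM. CPM, shares and exact 95% intervals were computed with scipy 1.17.1, numpy 2.4.6 and pandas 2.3.3 in Python 3.11.15, and matplotlib 3.10.9 drew the figures. Summed counts were tested with edgeR 4.0.16 and limma 3.58.1 (R 4.3.3) after filterByExpr by state, with TMM and library as block, leaving out the 5 gate genes, and the scripts were tested on simulated data. SE is the fold change divided by the root of F. The 3 libraries serve as repeats and differ in mouse stage. With library as block, p-values measure how far the differences between states vary among these libraries. The tested cells are also those that the gates sorted.

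Alternatives were DESeq2 1.42.0 (size factors or its Wald test), no filter, other gates, cell minimums and germ cell definitions, no block and leaving out each library. Scaling to total UMIs and leaving out cells with mouse supporting markers were chosen after the data were seen. The 9 genes and the lists were chosen with earlier results of these data known. From the lists, the up to 4 genes with the largest called change in each direction were candidates for naming, and the 3 most similar genes were taken for members with at least 50 UMIs.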

Additional observations from a re-analysis of the deposited data

Results flagged for a closer look

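Barcodes with 1000 to 10000 UMIs and 2 to 20% mitochondrial UMIs were left out of every comparison, and 4 of the 9 genes were detected in them above their level in mouse barcodes, with intervals that did not overlap. Over 481 such barcodes (median 1515 UMIs), SOHLH2 stood at 45.2 CPM (exact Poisson 95% interval 32.7 to 60.9), TAF4B at 32.6 CPM (22.2 to 46.3), LHX8 at 7.36 CPM (2.96 to 15.2) and GDF9 at 5.26 CPM (1.71 to 12.3). SOHLH2, LHX8 and GDF9 were near their germ cell levels of 47.8, 5.27 and 5.48 CPM, and TAF4B was above its 14.9 CPM. Of the 481 barcodes, 398 have the sequence of a germ cell barcode of another library. KHDC3L, at 2.10 CPM (2 UMIs, 0.255 to 7.60), was under its germ cell level of 13.8 CPM, and ZP3 and KPNA7 had 1 UMI each. FIGLA and NOBOX had 0 UMIs there, which allows up to 3.16 CPM. No other value was looked for as an outlier, because no stage has more than 1 library.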

How the results depend on the processing

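Of 388 values of members under alternatives, 347 kept direction and side of the threshold, 7 lost a call, 15 gained one and 19 changed sign. The number of members called, NOBOX included, moved as follows. In ungated over POU5F1-high cells it went from 4 to 7 with total UMIs as scale, which shifts the median of all genes, to 3 with gates at 0.5 times the share and with no block, to 5 with gates at 1.5 times, and between 3 and 5 with 1 library left out. In STRA8-positive over ungated cells it went from 1 to 2 with gates at 0.5 times the share, to 0 with no replicate block, and between 0 and 1 with 1 library left out. SYCE3-high over STRA8-positive went from 3 to 5 with cells in more than 1 gate left out, to 4 with gates at 0.5 times and between 3 and 4 with 1 library left out. EGR4/PIWIL4 over ungated went from 2 to 4 with no low-count filter (ZP3 higher, SOHLH2 lower), to 3 with DESeq2 size factors, the DESeq2 Wald test, gates at 0.5 times or total UMIs, and between 1 and 2 with 1 library left out. Members past the size rule between libraries went from 1 to 0 with equal weight to states and with DAZL, DDX4 and TFAP2C required. For the other settings the cause was not tested.

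All changes of sign were in differences not called as reported. TAF4B in ungated over POU5F1-high cells became 0.04 with gates at 1.5 times the share, -0.16 to 0.05 with 1 library left out (0.05 without E14.5) and 0.42 with total UMIs, where it was called. In STRA8-positive over ungated cells NOBOX ranged from -1.68 to 1.0 with 1 library left out (1.0 without E15.5), LHX8 -0.07 with gates at 1.5 times and GDF9 0.07 with gates at 0.5 times. In SYCE3-high over STRA8-positive cells NOBOX became 1.14 and 0.42 with gates at 0.5 and 1.5 times, 0.09 with single-gate cells and -2.80 to 0.37 with 1 library left out (0.37 without E13.5). There LHX8 became 0.28 and SOHLH2 0.15 with gates at 1.5 times, and KHDC3L became 0.89 with gates at 0.5 times and -2.02 to 0.15 with 1 library left out (0.15 without E13.5 or without E14.5). KHDC3L in EGR4/PIWIL4 over ungated cells became 0.00 with the DESeq2 Wald test, 0.03 with gates at 1.5 times, -0.89 to 0.67 with 1 library left out (0.67 without E15.5) and 0.04 with total UMIs.

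Over all genes, STRA8-positive over ungated cells had 159 higher and 322 lower calls. The higher calls became 275, 742, 7, 22 and 24 with no filter, gates at 0.5 times, no block, without E13.5 and without E15.5. The lower ones became 504, 1282, 45, 63 and 111, and 196 with gates at 1.5 times. Ungated over POU5F1-high cells went from 5530 higher and 5126 lower to 9433 and 2458 with total UMIs. EGR4/PIWIL4 over ungated cells went from 4161 and 4434 to 1483 and 1878 without E15.5. The library block compares states within a library. The 2 EGR4/PIWIL4 sums hold 10 and 36 cells, and depth limits ZP3, KPNA7 and NOBOX, of which no state held more than 16 UMIs.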

Other observations

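Genes of the lists outside the 9 differed widely in level in these germ cells, and those named here were chosen after their values were seen. Of the 29 maternal-effect genes found, 13 were under 1 CPM, as were 6 of the 9 zona pellucida and secreted factors and 2 of the 17 transcription factor and follicle formation genes. None of the 20 TFIID subunits and importins was under 1 CPM. NLRP14 had 0 UMIs in 2186 cells, NLRP13 4, NLRP5, a core subunit of the subcortical maternal complex with KHDC3L, 8, the oocyte linker histone gene H1-8 9 and NLRP4 12. Other maternal-effect genes were abundant, up to 450.4 CPM for NLRP2: OOEP, another subunit of that complex, had 39.7 CPM, from 37.2 CPM in POU5F1-high to 62.0 CPM in EGR4/PIWIL4 cells. The translational regulator CPEB1 had 158 CPM, with 119 CPM in POU5F1-high and 321 CPM in EGR4/PIWIL4 cells. TLE6, a further subunit, stood at 12.3 CPM in POU5F1-high, 1.10 CPM in SYCE3-high and 22.4 CPM in EGR4/PIWIL4 cells. TAF4, the ubiquitous paralog of TAF4B, had 342 UMIs in germ cells, fewer than the 1683 of TAF4B, although counts of 2 genes also depend on how their 3' ends are captured.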
